A study of Mus musculus with 12 samples.

Results

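Dorsal telencephalon, the part of the embryonic forebrain that forms the cortex and hippocampus, was profiled at embryonic stage E13.5 on 6 expression arrays. The arrays were chosen by their labels alone and make up 6 of the 12 arrays of the series. The 3 Nf2 knockout arrays came from embryos with both copies of Nf2 floxed (Nf2F/F;Emx1-Cre). The 3 Nf2 control arrays came from Cre carriers with a single floxed copy (Nf2F/+;Emx1-Cre), so control cells that expressed Cre kept 1 working copy, and the comparison is of no copy against 1 copy rather than against the wild type. Emx1-Cre acts in dorsal telencephalic progenitors and their offspring, so blood vessels, blood cells, microglia and meninges in the dissected tissue were not its targets. The genetic background was mixed in all groups. The other 6 arrays measured E11.5 forebrain and midbrain, 3 from embryos overexpressing YAP1-S127A (TetO-YAP1;Nes-rtTA) and 3 from YAP controls carrying the driver alone (Nes-rtTA). In both of those groups the dam ate doxycycline at 200 mg/kg from E7.5. They are used here only where the effects of the 2 manipulations are set side by side.

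Nf2 encodes Merlin, a membrane-cytoskeleton protein of the ezrin, radixin and moesin family and a tumour suppressor of the nervous system. Merlin promotes the Hippo kinase cascade, in which the Mst and Lats kinases phosphorylate the co-activators YAP and TAZ and keep them out of the nucleus. Free YAP and TAZ bind TEAD transcription factors and switch on targets such as Ccn1 (formerly Cyr61), Ccn2 (formerly Ctgf) and Amotl2. In the embryonic cortex, radial glia are the stem cells, intermediate progenitors expressing Eomes follow them, and neurons expressing Tbr1 are the first to leave the cycle. The cortical hem, at the medial edge, secretes Wnt and BMP signals.

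The values were log2 intensities, and each of 17097 genes was represented by 1 probe set, the one with the highest mean over these 6 arrays. Array medians ran from 4.3 to 4.42, and the lowest correlation across genes between arrays of 1 group was 0.995. The dissected region was checked by its markers. Emx1, the gene whose promoter drives the Cre, read 7.11 to 7.46, Lhx2 read 11.78 to 11.92 and Neurog2 read 11.02 to 11.15. Dlx2, a marker of ventral telencephalon, read 3.88 to 4.63. Xist, which is expressed in females, read 4.29, 12.25 and 4.04 in the controls and 4.43, 12.07 and 11.92 in the knockouts. The arrays numbered 3 are therefore of unlike sex, and their part in the results is measured by leaving both out. The labels number the arrays but do not say that each came from its own embryo, so the spread behind the p-values is that of these arrays and may be partly technical. The number of arrays limits the precision.

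Nf2 itself was lower on every knockout array than on every control array, but its difference did not pass the test. It read 8.41, 8.66 and 8.51 in the controls and 8.06, 8.27 and 8.11 in the knockouts. The log2 difference was -0.38 (SE 0.09, adjusted p = 0.323), or -0.35, -0.39 and -0.40 within the pairs of equally numbered arrays. With replicate number as a block the adjusted p was 0.201. The 4 probe sets of Nf2 all had a negative difference, from -0.38 to -0.09. Where the probes lie relative to the deleted part of the gene is not known here, so their level checks the labels only in part.

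Few transcripts passed the test after loss of Nf2, and nearly all of those were higher. At an adjusted p under 0.05 (limma, over all genes), 25 of 17097 genes were called (0.146%), 24 of them higher (0.14%) and 1 lower (0.00585%). The largest increases were of Steap1, a membrane protein of the Steap metalloreductase family, at 4.22-fold, and Ccn2, a secreted matrix protein and YAP target, at 4.09-fold. The only named gene that fell was Hopx, an atypical homeodomain protein of cortical progenitors. The called increases ran from 0.54 to 2.08 on the log2 scale. The median log2 difference of all genes was -0.00, with 8272 genes above 0 and 8825 below, where some genes of equal group means were counted as below. At an unadjusted p under 0.05 there were 1345 genes (7.87%), and 661 were higher (3.87%) and 684 lower (4%), so the excess of increases stood among the strongest differences only. Tested one by one, 40 of 45037 probe sets were called (0.0888%). In all 25 called genes the knockout arrays and control arrays did not overlap, which follows largely from calling them on the same arrays. Of all genes 12.7% did not overlap.

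**Figure D1:**
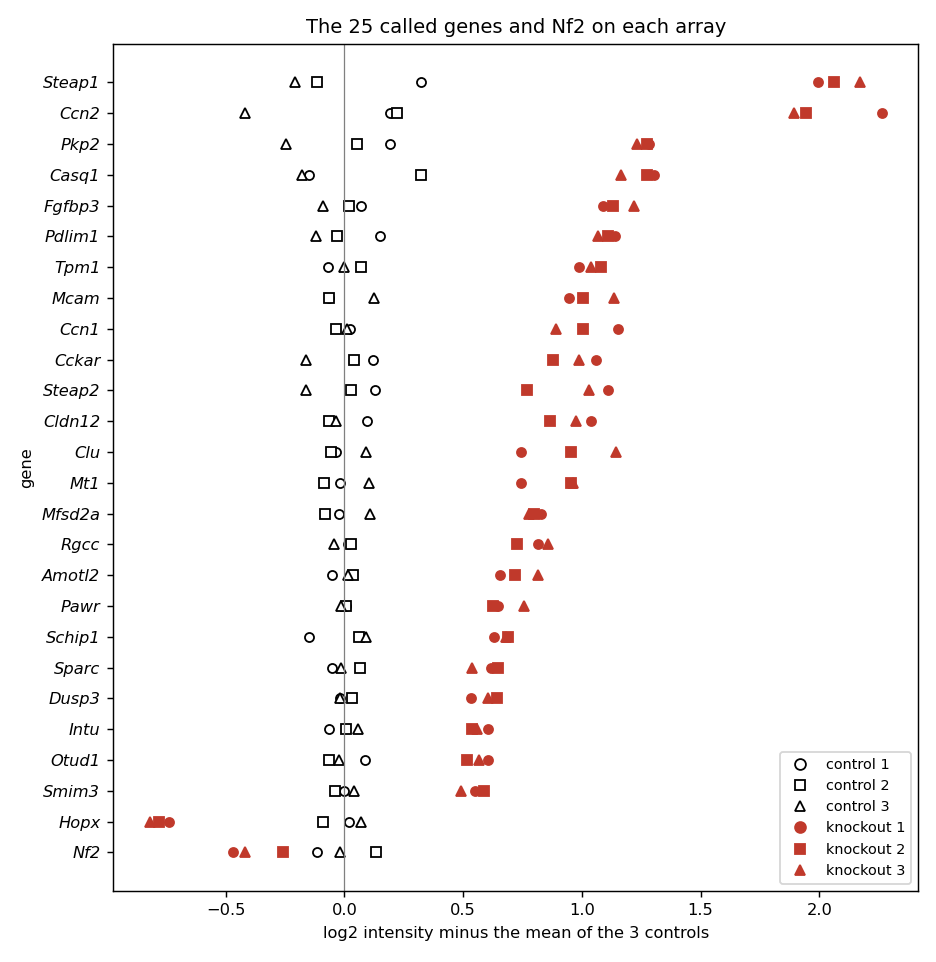
Log2 intensity of each called gene and of Nf2 on each of the 6 arrays, minus the mean of the 3 controls. Open symbols are controls, filled symbols knockouts, and the symbol shape gives the replicate number. In every row the knockouts lie clear of the controls, farthest for Steap1 and Ccn2.

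Equally numbered arrays deviated together, so replicate number was also fitted as a block. With it, 11 genes were called (0.0643%), all higher and 0 lower. They were 9 of the 25, namely Steap1, Ccn2, Pkp2, Fgfbp3, Pdlim1, Tpm1, Mcam, Ccn1 and Cldn12, and also Ajuba and Podxl. The other 16 genes had adjusted p between 0.0626 and 0.133 with the block, which leaves 2 residual degrees of freedom in place of 4. Leaving out 1 array left 7, 4 or 8 calls without control 1, 2 or 3 and 9, 6 or 5 without knockout 1, 2 or 3. Steap1, Fgfbp3 and Tpm1 remained called in all 6 of these fits. With the Xist level as a covariate, 11 genes were called, 10 of them among the 25. Without both arrays numbered 3, none of the genes was called by limma, and 1003 had an unadjusted p under 0.05. Every called gene kept its sign in all of these fits.

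**Figure D2:**
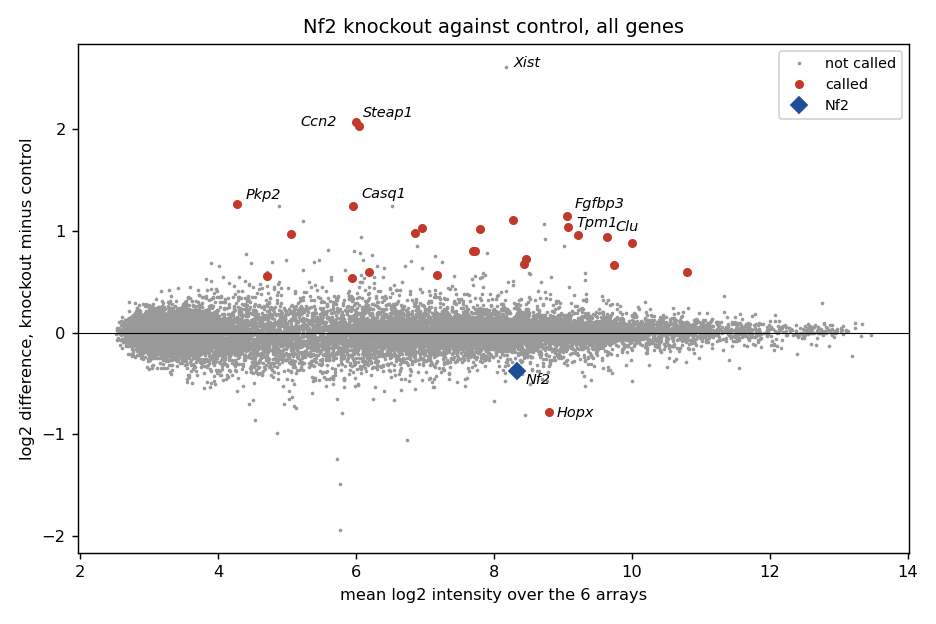
Log2 difference between knockout and control against the mean log2 intensity over the 6 arrays, 1 point for each of 17097 genes. Called genes are red and Nf2 is a blue diamond, and the called increases span the range of intensities with Hopx as the single called decrease.

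The YAP/TEAD target list, which holds widely used reporters of YAP activity, had 3 of its 27 measured members called, all higher, against 0.14% of all genes. Ccn2 read 5.22, 5.25 and 4.61 in the controls and 7.29, 6.97 and 6.92 in the knockouts, a log2 difference of 2.03 (SE 0.18, adjusted p = 0.0115). Ccn1, a matrix protein of the same family, read 7.31, 7.25 and 7.30 against 8.44, 8.29 and 8.18, which gave 1.02 (SE 0.08, adjusted p = 0.00805). Amotl2, an angiomotin that binds YAP and holds it in the cytoplasm, read 8.04, 8.13 and 8.11 against 8.75, 8.81 and 8.91. Its difference was 0.73 (SE 0.07, adjusted p = 0.0119, and 0.0626 with the block). As in every called gene, the groups of these 3 did not overlap. With 1 array left out, Ccn2 remained called in 1 of 6 fits, Ccn1 in 2 and Amotl2 in 0. With the Xist level as a covariate, Ccn1 remained called, while Ccn2 and Amotl2 did not.

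The target list as a whole was split. Its median log2 difference was 0.04, against -0.00 for all genes, and 14 of 27 members were above 0. At an unadjusted p under 0.05, 8 members were higher and 2 lower, against 3.87% and 4% of all genes. In 8 members, against 6.62% of all genes, the knockouts lay wholly above the controls, and in 0 wholly below. Without control array 2 the list's median was -0.01. Ajuba, a LIM protein that restrains Lats kinases, read 8.58, 8.28 and 7.96 against 9.43, 9.16 and 9.0. Its spread within each group followed the replicate number, and its difference of 0.92 had an adjusted p of 0.182 without the block and 0.0483 with it. Ptpn14, a phosphatase that binds YAP, differed by 0.66 (SE 0.15, adjusted p = 0.297). Ankrd1, a cardiac reporter of YAP, was at 3.41 to 3.79 on all arrays and differed by 0.04 (SE 0.11). Ccnd1, cyclin D1, differed by -0.23 (SE 0.19).

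The windows of 250 bases before the annotated start of 3 called genes are shown because each holds the core TEAD letters GGAATG, or CATTCC on the other strand, in capitals, and that of Steap1, the gene with the largest called difference, because it holds neither. They are from RefSeq (GRCm38.p6), 5′ to 3′ on the strand of the gene. Ccn1 lies on the minus strand (chr3:145649986-145650235), Amotl2 on the plus strand (chr9:102717554-102717803), Tpm1 on the minus strand (chr9:67049214-67049463) and Steap1 on the minus strand (chr5:5749318-5749567).
Ccn1: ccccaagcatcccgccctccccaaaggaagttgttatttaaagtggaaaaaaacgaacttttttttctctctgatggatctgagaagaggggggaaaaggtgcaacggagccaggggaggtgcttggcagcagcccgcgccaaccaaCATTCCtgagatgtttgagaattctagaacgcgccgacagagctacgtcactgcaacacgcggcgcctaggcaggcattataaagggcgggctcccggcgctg
Amotl2: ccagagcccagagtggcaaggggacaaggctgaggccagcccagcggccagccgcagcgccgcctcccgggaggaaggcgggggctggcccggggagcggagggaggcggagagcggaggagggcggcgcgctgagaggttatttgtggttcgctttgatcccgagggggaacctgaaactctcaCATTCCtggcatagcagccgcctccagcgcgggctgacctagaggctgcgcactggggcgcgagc
Tpm1: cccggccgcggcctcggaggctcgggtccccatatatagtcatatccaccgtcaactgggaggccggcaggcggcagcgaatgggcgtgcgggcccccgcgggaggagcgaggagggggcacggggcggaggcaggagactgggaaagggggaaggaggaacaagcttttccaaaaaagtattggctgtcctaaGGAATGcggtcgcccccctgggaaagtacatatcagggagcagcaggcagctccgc
Steap1: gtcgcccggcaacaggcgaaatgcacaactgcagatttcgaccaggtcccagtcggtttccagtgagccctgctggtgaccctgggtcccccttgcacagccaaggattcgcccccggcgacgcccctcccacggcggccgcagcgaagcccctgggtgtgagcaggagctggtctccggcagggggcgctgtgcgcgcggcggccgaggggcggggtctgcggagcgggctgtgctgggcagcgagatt
The letters begin 103 bases before the start in Ccn1, 65 in Amotl2 and 56 in Tpm1. Of the 25 called genes, 20 had a window, with 27 windows in all. GGAATG on either strand was in 6 of these, for Amotl2, Ccn1, Otud1 and Tpm1 and for 1 window each of Schip1 and Steap2. Of all 32851 windows of this length, 12.6% held it. The letters of an AP-1 site, TGANTCA on either strand, were in 1 of the 27 windows, for Schip1, and in 6.75% of all. A CArG box, which serum response factor binds, was in 5 of the 27 and in 1.47% of all. The 5 belong to 3 of the 20 genes, Cldn12, Hopx and Schip1. The Cldn12 windows overlap and hold the same CArG box, so it is counted in each of them. The windows of Cldn12, of Hopx, of Schip1 and of Steap2 come from alternative starts of 1 gene, and those that lie near each other share sequence. A match describes the letters and not a binding site.

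A cluster of 3 called genes lies together on chromosome 5. In the RefSeq order of GRCm38.p6 they run Cldn12, Gtpbp10, Gm8773, Cfap69, Gm40262, Steap2 and Steap1, so Steap1 and Steap2 are direct neighbours. Steap1 read 5.29, 4.85 and 4.76 in the controls and 6.96, 7.03 and 7.14 in the knockouts, a log2 difference of 2.08 (SE 0.14, adjusted p = 0.00527). Its second probe set differed by the same 2.08. Steap2, a reductase of iron and copper at the cell membrane, read 4.70, 4.60 and 4.41 against 5.68, 5.34 and 5.60, a difference of 0.97 (SE 0.11, adjusted p = 0.0335, and 0.0882 with the block). Its 4 probe sets disagreed, with differences of 0.97, 0.65, 0.50 and -0.04. Cldn12, a claudin of cell junctions, read 8.84, 8.68 and 8.71 against 9.78, 9.61 and 9.72, a difference of 0.96 (SE 0.08, adjusted p = 0.00805).

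The genes between and beside them were not called. Gtpbp10 differed by 0.19 and Cfap69 by 0.28, and Gm8773 and Gm40262 had no probe set here. Of the other members of the family, Steap4, a little farther along the same chromosome, differed by 0.04 and Steap3 by -0.04. Steap4 changed sign in some of the alternative fits. None of the other 22 called genes had a called gene among the 5 measured genes on either side.

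**Figure D3:**
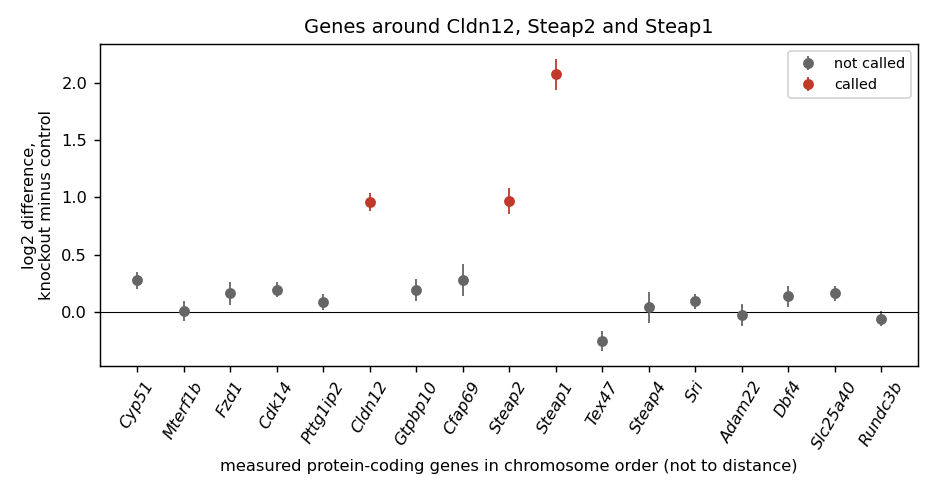
Log2 difference between knockout and control, with its SE, for measured protein-coding genes in their order on chromosome 5, evenly spaced and not to distance. Cldn12, Steap2 and Steap1 are called (red), and no other gene shown lies above 0.28.

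Called genes of the cytoskeleton and of junctions were Tpm1, Pdlim1 and Pkp2, besides Cldn12. Tpm1, a tropomyosin that coats actin filaments, read 8.49, 8.63 and 8.56 in the controls and 9.55, 9.64 and 9.60 in the knockouts. It rose by 1.04 (SE 0.07, adjusted p = 0.00527), and its other probe sets differed by 0.72 and 1.12. Pdlim1, which links actinin to other proteins of stress fibres, read 7.87, 7.69 and 7.60 against 8.86, 8.83 and 8.79, a difference of 1.11 (SE 0.08, adjusted p = 0.00805). Pkp2, the desmosomal plakophilin, read 3.84, 3.70 and 3.40 against 4.93, 4.92 and 4.88, a difference of 1.26 (SE 0.11, adjusted p = 0.0103). Pkp2 was low in the controls, and its value comes from a probe set that may match more than 1 transcript. Its other probe set differed by 0.01.

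Tpm1 was the only called member of the 23 measured genes of the actin and focal adhesion list. The list's median was 0.12, and 17 members were above 0. Acta2, smooth muscle actin, differed by 0.39 (SE 0.23), Zyx, zyxin of focal adhesions, by 0.33 (SE 0.08), and Flna, the actin crosslinker filamin A, by 0.32 (SE 0.08), none of them called. Pkp2 was the only called member of 29 measured genes of apical junctions and polarity, whose median was 0.01. Prkcz, an atypical protein kinase of the apical complex, differed by -0.30 (SE 0.11) and Nectin3, an adherens junction protein, by 0.27 (SE 0.11).

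Several called genes encode secreted or cell surface proteins. Fgfbp3, which binds fibroblast growth factors, read 8.55, 8.50 and 8.39 against 9.57, 9.61 and 9.70, a difference of 1.15 (SE 0.07, adjusted p = 0.00527). Mcam, the adhesion molecule CD146, read 6.38, 6.38 and 6.57 against 7.39, 7.45 and 7.58, a difference of 1.03 (SE 0.08, adjusted p = 0.00805). Both were also called with the block. Cckar, a receptor of the peptide cholecystokinin, read 6.48, 6.40 and 6.20 against 7.42, 7.24 and 7.35, a difference of 0.98 (SE 0.09, adjusted p = 0.0119, and 0.0626 with the block). Clu, the secreted chaperone clusterin, read 9.13, 9.11 and 9.26 against 9.91, 10.12 and 10.31, a difference of 0.95 (SE 0.11, adjusted p = 0.031, and 0.0626 with the block). Its other probe sets differed by 0.75 and 0.92. Mfsd2a, a lipid transporter known from the blood-brain barrier, read 7.27, 7.21 and 7.4 against 8.12, 8.09 and 8.07, a difference of 0.80 (SE 0.07, adjusted p = 0.0103, and 0.0626 with the block). Sparc, a matrix glycoprotein, read 10.44, 10.56 and 10.48 against 11.11, 11.14 and 11.03, a difference of 0.60 (SE 0.07, adjusted p = 0.0282, and 0.0882 with the block). Mcam, Mfsd2a and Sparc are also made by blood vessels, and the part of vessels in their differences was not tested.

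The remaining called increases were of proteins that act inside the cell, and with the block all 9 missed the threshold. Casq1, a calcium store protein of muscle, read 5.19, 5.66 and 5.16 against 6.64, 6.61 and 6.5, a difference of 1.25 (SE 0.14, adjusted p = 0.0266, and 0.0626 with the block). Mt1, a metallothionein that binds zinc and copper, read 9.54, 9.47 and 9.66 against 10.30, 10.51 and 10.52, a difference of 0.89 (SE 0.09, adjusted p = 0.0151, and 0.0626 with the block). The Mt1 probe set may match more than 1 transcript, and its dim second probe set differed by 0.20. Rgcc, a regulator of the cell cycle, read 7.34, 7.35 and 7.28 against 8.14, 8.05 and 8.18, a difference of 0.80 (SE 0.06, adjusted p = 0.00805, and 0.0626 with the block). Pawr, a pro-apoptotic protein, differed by 0.68 (SE 0.06, adjusted p = 0.0119, and 0.086 with the block), and its dim second probe set by 0.04. Schip1, named for its binding to Merlin, read 9.25, 9.46 and 9.49 against 10.03, 10.09 and 10.08, a difference of 0.67 (SE 0.08, adjusted p = 0.0381, and 0.0882 with the block). Dusp3, a phosphatase of MAP kinases, differed by 0.59 (SE 0.06, adjusted p = 0.0216, and 0.0882 with the block). Its other probe sets, which were dim, both differed by 0.09.

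Intu, an effector of planar polarity and cilia, Otud1, a deubiquitinase, and Smim3, a small membrane protein, had the smallest called increases. Intu read 6.82 to 6.94 in the controls and 7.42 to 7.49 in the knockouts, a difference of 0.57 (SE 0.06, adjusted p = 0.0293). Otud1 read 4.36 to 4.51 against 4.94 to 5.03, a difference of 0.56 (SE 0.07, adjusted p = 0.0381). Smim3 read 5.63 to 5.71 against 6.16 to 6.26, a difference of 0.54 (SE 0.06, adjusted p = 0.0313). Their adjusted p with the block were 0.118, 0.0882 and 0.133. None of the 3 remained called in any fit with 1 array left out, and neither did Cckar, Steap2, Amotl2, Pawr, Schip1, Sparc, Dusp3 or Hopx. The other, dim, probe sets of Intu differed by -0.02 and 0.08.

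Hopx read 9.20, 9.09 and 9.25 in the controls and 8.44, 8.40 and 8.36 in the knockouts. It fell by 0.78 on the log2 scale (SE 0.07, adjusted p = 0.0103, and 0.0626 with the block), and its second probe set differed by -0.74. It was the only called gene among 24 measured genes of radial glia and apical progenitors, whose median was 0.06 with 16 above 0. Nes, the intermediate filament nestin, differed by 0.36 (SE 0.08, adjusted p = 0.296) and Tnc, the matrix protein tenascin C, by 0.35 (SE 0.13). The Notch effectors went opposite ways, Hes5 by -0.34 (SE 0.11) and Hes1 by 0.24 (SE 0.06), neither called. The dorsal progenitor factors differed little. The differences were -0.15 (SE 0.08) for Emx1, -0.08 (SE 0.09) for Emx2, 0.02 (SE 0.07) for Lhx2 and 0.07 (SE 0.06) for Pax6.

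After Hopx, the 9 lower genes with the smallest unadjusted p did not pass the test. Alas2, the first enzyme of haem synthesis in red cells, read 6.03, 6.36 and 6.21 against 5.46, 5.51 and 5.25, a difference of -0.79 (SE 0.11, adjusted p = 0.0669). Fgd5, an exchange factor of endothelium, differed by -0.63 (SE 0.09, adjusted p = 0.0755). Nptx2, a neuronal pentraxin, differed by -0.66, the splicing factor Sf3a2 by -0.52, the calcium channel Cacna1d by -0.46 and Adcyap1r1, the receptor of the peptide PACAP, by -0.46. Ypel2 differed by -0.45, the metalloprotease Adamts9 by -0.43 and the teneurin Tenm4 by -0.40. Their adjusted p ran up to 0.148, and the lowest with the block was 0.107. In a limma fit to all 12 arrays, Adamts9, Fgd5 and Nptx2 were called lower (adjusted p = 0.0159, 0.0233 and 0.0268), and the others were not.

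Of the Hippo pathway upstream of YAP, 1 of 26 measured genes was called, Amotl2, and the list's median was 0.00. After Ajuba and Amotl2, the largest differences were of Wwc2, a Kibra family scaffold, at 0.70 (SE 0.10, adjusted p = 0.0787), and of Ptpn14. Wwc2 read 6.99, 6.84 and 6.86 in the controls and 7.62, 7.76 and 7.41 in the knockouts. In the fit to all 12 arrays, which called 43 genes after Nf2 loss (0.252%), 35 higher (0.205%) and 8 lower (0.0468%), 3 of the 26 were called, all higher. Podxl, podocalyxin, an apical sialoprotein that ERM proteins anchor, read 8.75, 8.66 and 8.38 against 9.54, 9.53 and 9.27. Like Ajuba it was called in the Nf2 experiment alone with the block but not without it. Its difference was 0.85 (adjusted p = 0.048 with the block and 0.0755 without). Both genes were also called in the fit to all 12 arrays (adjusted p = 0.0268 for each). None of the 10 measured Merlin and ERM family genes was called. Cd44, a hyaluronan receptor that ERM proteins bind, differed by 0.55 (SE 0.11, adjusted p = 0.234) and Msn, moesin, by 0.19 (SE 0.06). None of the 10 genes of the YAP, TAZ and TEAD list was called. Yap1 differed by -0.01 (SE 0.08), and Wwtr1, which encodes TAZ, by 0.18 (SE 0.07).

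Among the offspring of radial glia, none of 20 measured genes of intermediate progenitors was called, and their median was -0.01. Eomes read 10.63, 10.71 and 10.79 against 10.58, 10.72 and 10.80, a difference of -0.01 (SE 0.08). Rhbdl3 had the largest, -0.33 (SE 0.08, adjusted p = 0.33). None of 20 genes of cortical neurons was called either, yet all 20 had a difference below 0, with a median of -0.15. Among all genes 8825 of 17097 were counted as below 0, some of them with equal group means. Nfasc, neurofascin, differed by -0.45 (SE 0.10, adjusted p = 0.242), Lmo3, a LIM-only protein, by -0.37 (SE 0.15), Bcl11b, a factor of deep-layer neurons, by -0.26 (SE 0.10), and Tbr1 by -0.17 (SE 0.10). Tbr1 read 8.98, 9.18 and 9.22 in the controls and 8.79, 9.03 and 9.04 in the knockouts, so the groups overlap. The mean of the neuron list per array was 8.95 to 9.15 in the controls and 8.76 to 8.99 in the knockouts, which overlap too. Over the alternative fits the list's median ran from -0.25 to -0.09, and at least 17 members stayed below 0.

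Around the cortex's medial edge, the lists also held no called gene. Of 20 measured genes of the cortical hem and midline, 16 were above 0, with a median of 0.20, and 8 had an unadjusted p under 0.05, all higher, against 3.87% of all genes. Bmp6, a BMP ligand, read 5.31, 4.92 and 5.10 against 5.54, 6.07 and 5.88, a difference of 0.72 (SE 0.15, adjusted p = 0.241). Rspo2, an R-spondin that boosts Wnt signalling, differed by 0.50 (SE 0.12), Dkk3 of the Dickkopf family by 0.46 (SE 0.11) and Msx2, a homeobox target of BMP, by 0.40 (SE 0.09). Wnt8b, expressed in the hem and hippocampal primordium, differed by 0.32 (SE 0.14). The median of the hem list stayed between 0.12 and 0.25 over the alternative fits. The 15 hippocampal primordium genes had a median of -0.09, and Lhx9 had the largest difference, -0.34 (SE 0.10).

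Of the 9 Cajal-Retzius genes, 4 were above 0. Reln, reelin, differed by -0.34 (SE 0.09) and Calb2, calretinin, by -0.26 (SE 0.08). The 12 choroid plexus genes had a median of -0.09. Ttr, transthyretin, differed by -0.11 (SE 0.08), and Cldn2 by -0.26 (SE 0.15). How much hem, choroid plexus or ventral tissue a dissection took in was not measured apart from these markers. The ventral and GABAergic list had a median of -0.23 with 14 of 16 below 0, but it moved with single arrays. Dlx1 read 4.25, 6.28 and 5.53 in the controls and 4.53, 4.73 and 4.86 in the knockouts, so control 1 lay below all knockouts. Gad1, an enzyme of GABA synthesis, differed by -0.46 (SE 0.12, adjusted p = 0.402) and Dlx5 by -0.48 (SE 0.26).

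None of the genes of the cell cycle was called. Of 25 genes of G1/S and DNA replication, 20 were above 0, with a median of 0.12, and 7 had an unadjusted p under 0.05, all higher, against 3.87% of all genes. The lowest member was Ccnd1, at -0.23. Cdk6, a kinase of G1, read 8.27, 8.30 and 8.07 against 8.85, 8.67 and 8.89, a difference of 0.59 (SE 0.09, adjusted p = 0.11). Ccnd3, cyclin D3, differed by 0.26 (SE 0.07) and the replication helicase subunit Mcm3 by 0.22 (SE 0.11). Of 20 genes of G2/M, 18 were above 0, with a median of 0.08, led by the spindle protein Tpx2 at 0.19 (SE 0.08). Mki67 read 10.99, 10.88 and 10.72 against 11.04, 10.96 and 10.99, a difference of 0.13 (SE 0.08). The mean per array of the G1/S list was 9.13 to 9.22 in the controls and 9.21 to 9.33 in the knockouts. That of the G2/M list was 9.75 to 9.87 against 9.83 to 9.95, so in both lists the groups overlap. The median of 12 cell cycle inhibitors was -0.03.

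None of the genes on the stress lists was called. The median of 17 p53 and apoptosis genes was 0.05, with Pmaip1 (Noxa) at 0.28 (SE 0.11), Phlda3 at 0.25 (SE 0.09) and Cdkn1a (p21) at 0.21 (SE 0.12), none called. The median of 16 immediate early genes was -0.03, and Egr1 differed by -0.41 (SE 0.23). Of 15 genes of hypoxia and glycolysis, 12 were above 0, with a median of 0.13, and 5 had an unadjusted p under 0.05, all higher, against 3.87% of all genes. Egln3, an oxygen sensor induced by hypoxia, read 5.92, 5.35 and 5.52 against 6.49, 6.63 and 6.51, a difference of 0.95 (SE 0.14, adjusted p = 0.0882), and Slc2a3, a glucose transporter, differed by 0.50 (SE 0.08, adjusted p = 0.117). Egln3 differed by as much as several called genes, with a wider spread among the controls. It was called higher in the fit to all 12 arrays (adjusted p = 0.00551). The 2 brighter probe sets of Slc2a3 differed by 0.50 and 0.36 and the 2 dim ones by -0.02 and 0.04.

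Signalling and guidance lists had 1 called gene between them, Dusp3. The 21 Notch pathway genes had a median of -0.07. Besides the Hes genes, the fringe Rfng differed by -0.20 (SE 0.07) and the Notch target Nrarp by -0.18 (SE 0.06). The FGF and MAPK feedback list, with 28 measured genes, had a median of -0.03. Etv5 and Dusp4, which FGF signalling is known to induce, differed by -0.46 (SE 0.14) and -0.35 (SE 0.07, adjusted p = 0.226). Fgf15 differed by -0.57 (SE 0.41), which rests on control array 2, at 5.62 against 3.70 to 4.15 on the others. None of 22 genes of Slit, Robo, netrin and Wnt guidance was called, and 15 were below 0 and 6 above, with a median of -0.12. Slit2, a ligand of Robo receptors, read 9.27, 9.14 and 9.11 against 9.49, 9.58 and 9.45, a difference of 0.33 (SE 0.07, adjusted p = 0.26). Slit1 and Robo1 both differed by -0.37 (SE 0.13 and 0.10). None of 32 semaphorin, plexin and ephrin genes was called, and 23 were below 0 and 7 above, with a median of -0.10. Sema5a and Sema5b both differed by 0.38 (SE 0.14 and 0.07), Sema3f by 0.37 (SE 0.08) and the receptor Plxna2 by -0.37 (SE 0.12). Sparc was the only called gene among 25 of matrix, laminins and integrins, whose median was -0.06. The collagens Col4a1 and Col1a1 both differed by -0.46 (SE 0.13 and 0.11), and Col4a6 by 0.59 (SE 0.47) with overlapping groups.

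None of the genes on the lists for cells outside the Emx1 lineage was called. Mcam, Mfsd2a and Sparc, which blood vessels also make, were called but are not on these lists. In bulk tissue, fewer cells of a type and less RNA per cell cannot be told apart. All 12 microglia and macrophage genes were above 0, with a median of 0.27. Their summed intensity on the linear scale was 746 to 777 in the controls and 904 to 935 in the knockouts. Tyrobp, an adaptor of microglial receptors, read 5.95, 5.71 and 6.29 against 6.44, 6.47 and 6.69, a difference of 0.55 (SE 0.15, adjusted p = 0.404). Ptprc, the leukocyte antigen CD45, differed by 0.42 (SE 0.08) and the complement genes C1qb and C1qc by 0.49 and 0.45 (SE 0.19 and 0.08).

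All 14 endothelial genes were below 0, with a median of -0.28. Their sum was 1130 to 1311 in the controls and 817 to 1237 in the knockouts. Cldn5, the claudin of brain vessels, read 7.56, 8.04 and 7.93 against 7.74, 7.25 and 6.96, and Cdh5, VE-cadherin, read 5.82, 5.91 and 5.79 against 5.85, 5.4 and 4.90. Knockout 1 lay among the controls for both, so the differences of these 2 genes rest on knockouts 2 and 3. Flt1, of the same list, read 5.53, 5.52 and 5.68 against 5.34, 5.15 and 4.93, with knockout 1 below every control. In 3 of the 14 genes the knockouts lay wholly below the controls, against 6.05% of all genes. The 14 genes of pericytes and meninges had a median of -0.14, with Foxc1 at -0.41 (SE 0.18) and Pdgfrb at -0.31 (SE 0.17), for both of which knockout 1 was again like the controls. Col1a1, with the largest difference of that list, read 5.75, 5.56 and 5.60 against 5.02, 5.41 and 5.10, so there knockout 1 was the lowest array. Of 9 erythroid genes, 7 were below 0, with a median of -0.23 and a sum of 19400 to 19628 in the controls against 16119 to 17795 in the knockouts. Slc4a1, the anion exchanger of red cells, differed by -0.70 (SE 0.17, adjusted p = 0.34, and 0.0626 with the block) and the embryonic globin Hba-x by -0.47 (SE 0.11). The part of these cells in the called differences was not tested.

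Clu was the only called gene among 16 early glial genes, 12 of which were below 0, with a median of -0.17. Aldoc differed by -0.35 (SE 0.06, adjusted p = 0.168), Sox10, of oligodendrocytes and neural crest, by -0.37 (SE 0.14), and the astrocyte enzyme Aldh1l1 by 0.69 (SE 0.15, adjusted p = 0.277). The lists of surface ectoderm (11 genes, median 0.04) and of midbrain and diencephalon (13 genes, median -0.00) held no called gene, and their members averaged 3.83 to 4.0 and 3.89 to 3.93 per array, near the low end of the scale.

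**Figure D4:**
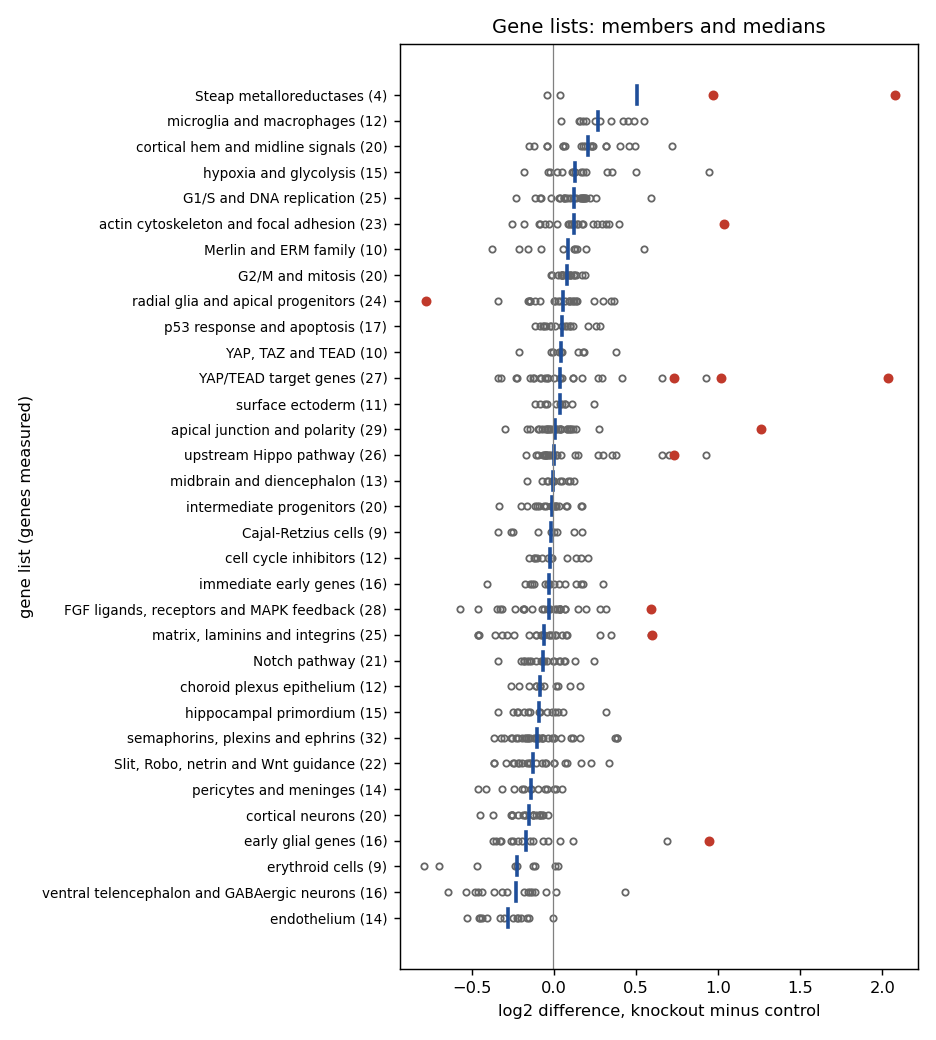
Log2 difference between knockout and control for each measured member of 33 gene lists, ordered by the list's median (blue bar). Red points are called genes, open points are not called, the grey line is the median of all genes, and a gene on several lists appears in each.

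Most genes that Nf2 loss raised at E13.5 were also raised by YAP overexpression at E11.5. In a fit to all 12 arrays, 1073 genes were called for YAP overexpression (6.28%), 455 higher (2.66%) and 618 lower (3.61%). Of the 24 genes higher after Nf2 loss, 20 were called higher there, and Hopx was called lower in it too. Casq1, Cckar, Mcam and Mt1 were not called for YAP. Age, tissue and manipulation differ together between the experiments and cannot be told apart, and the 2 experiments look separately normalized. Levels were therefore not compared, only the difference of each group from the controls of its experiment. The lower quartile was 3.26 to 3.29 on the Nf2 arrays and 4.33 to 4.36 on the YAP arrays. How far these unlike low ends alter the differences of dim genes was not tested.

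For 48 of 17097 genes (0.281%) the 2 effects differed at an adjusted p under 0.05, among them 6 of the 25 called genes. Clu rose by 3.60 (SE 0.21) with YAP, and the Nf2 effect was smaller by -2.66 (SE 0.30, adjusted p = 0.00272). Dusp3 rose by 1.98 (SE 0.08) with YAP, a difference between the effects of -1.38 (SE 0.11, adjusted p = 0.00027). Pkp2 rose by 2.70 (SE 0.11) with YAP, a difference of -1.44 (SE 0.16, adjusted p = 0.00272). Ccn1 rose by 1.93 (SE 0.11) with YAP, a difference of -0.92 (SE 0.16, adjusted p = 0.0341). So the measured differences of these 4 genes were larger in the YAP experiment. Those of the 2 others were larger in the Nf2 experiment. Casq1 differed by 0.23 (SE 0.12) with YAP, a difference of 1.02 (SE 0.17, adjusted p = 0.0305), and Cckar by 0.12 (SE 0.10), a difference of 0.86 (SE 0.14, adjusted p = 0.0245). With the replicate block in both experiments, 14 genes in all were called for the difference. Casq1, Ccn1 and Cckar then had adjusted p of 0.0816, 0.122 and 0.0681.

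Steap1 rose by 3.03 with YAP and Ccn2 by 2.50, and neither effect was called different from that of Nf2 loss, at -0.95 (adjusted p = 0.151) and -0.47 (adjusted p = 0.678). For Mcam, at 0.40 with YAP, and Mt1, at 0.61, the difference was not called either (adjusted p = 0.447 and 0.804). Steap2 and Cldn12 rose with YAP by 0.67 and 1.30. A pair of further genes were singled out after their values were seen. Adamts9 rose by 0.52 (SE 0.07) with YAP and was at -0.43 after Nf2 loss, a difference of -0.95 (SE 0.09, adjusted p = 0.0011), although its dimmest probe set went the other way in both experiments. Eomes fell by 1.22 (SE 0.10) with YAP and was level after Nf2 loss, a difference of 1.21 (SE 0.14, adjusted p = 0.0032).

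**Figure D5:**
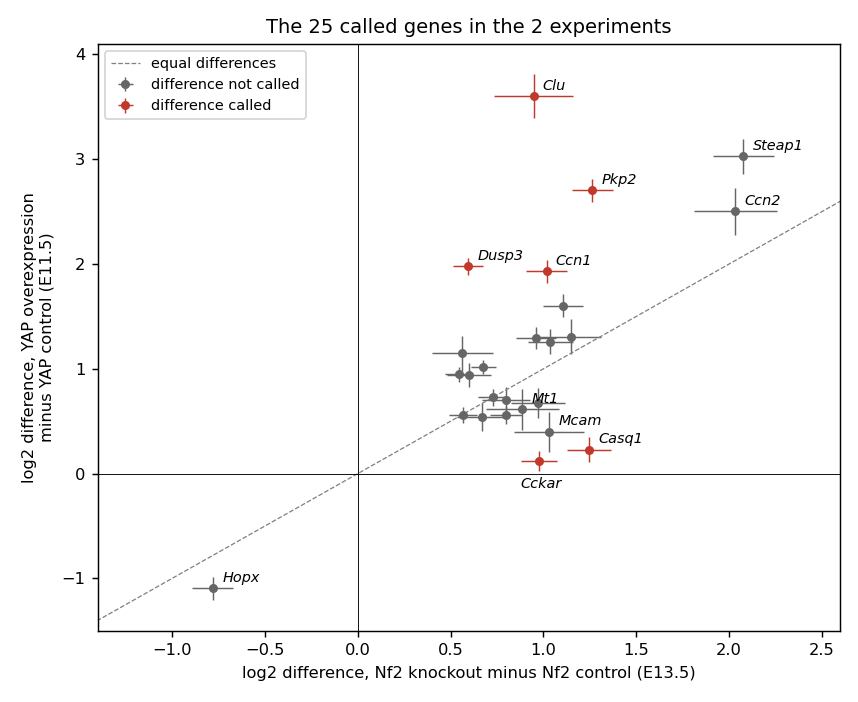
Log2 difference in the YAP experiment (E11.5) against that in the Nf2 experiment (E13.5) for the 25 genes called after Nf2 loss, with SE bars from the fit to all 12 arrays. Red genes differ between the experiments: Clu, Pkp2, Dusp3 and Ccn1 lie above the line of equal differences, Casq1 and Cckar below it.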

How the data were processed

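Total RNA (100 ng per sample) was labelled with a 3' IVT Express kit and hybridised to Affymetrix arrays. The authors deposited 1 log2 intensity per probe set and array, to 2 decimals. RMA, Affymetrix Expression Console 1.1 and Partek 6.5 are named in the submitters' processing notes, with no role or order given. Of 45037 probe sets, 29449 were in the platform table, 28898 of them with 1 gene symbol and 551 with several. Entrez IDs updated 28689 of the former and 209 kept their name. That gave 17097 genes.

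Knockout and control were compared with limma 3.58.1 (R 4.3.3) on the 6 arrays, with 2 group means (4 residual and 3.33 prior degrees of freedom) and Benjamini-Hochberg adjustment over all genes. P-values are two-sided, and called, rose or fell means an adjusted p under 0.05. An exact permutation test of 3 against 3 arrays cannot go below 0.1 and was not used. Residuals of equally numbered arrays correlated with r of 0.272, 0.212 and 0.211 (0.2, 0.114 and 0.275 without sex-linked genes). Replicate number was therefore fitted as a block too, from the data rather than the labels. For unequal numbers r was at most -0.00 (0.01 without sex-linked genes). Residuals within a group sum to 0, so a positive r for equal numbers lowers r for unequal numbers. The unequal values are thus no separate sign of pairing. The differences of Nf2 and YAP effects come from 4 group means over all 12 arrays. The fits were tested on simulated data.

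The 34 gene lists (617 genes, 561 measured) and the genes to name were chosen with earlier results of these data known. The genes to name were Nf2, called genes up to 25 in each direction and lower genes with the smallest p up to 10. Genes called with the block but not among the 25 called genes were also named. So were list members that were called, the 4 largest per list or well known. The sex-linked list was used only through Xist.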

Additional observations from a re-analysis of the deposited data

Results flagged for a closer look

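Of all 45037 probe sets, 40 were called when tested together (0.0888%), 28 of them belonging to 23 single genes. The other 12 are tied to no single gene in the platform table and had no part in the comparison of genes, and are given here because they passed the same limma test. The largest difference was a decrease. Probe set 1442447_PM_at read 5.67, 5.45 and 5.52 in the controls and 3.19, 3.23 and 3.51 in the knockouts, a log2 difference of -2.24 (SE 0.11, adjusted p = 0.00278). Probe set 1441899_PM_x_at fell by 0.87 on the log2 scale (adjusted p = 0.0188). Neither was called for YAP, with differences of 0.39 and 0.05 there. The other 10 were higher. The log2 differences were 1.52 for 1460302_PM_at, 1.52 for 1421811_PM_at, 1.29 for 1442340_PM_x_at, 1.18 for 1428942_PM_at, 1.14 for 1439427_PM_at. They were 1.01 for 1429106_PM_at, 0.94 for 1454849_PM_x_at, 0.81 for 1439093_PM_at, 0.71 for 1426750_PM_at and 0.55 for 1426341_PM_at. Of these 10, 8 were also called higher for YAP, and 1439427_PM_at and 1426341_PM_at differed there by -0.14 and -0.16. With the replicate block no probe set of the 45037 was called by limma. The lowest adjusted p was 0.0551, and 3723 had an unadjusted p under 0.05.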

How the results depend on the processing

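Of the 25 calls, all remained with array weights, quantile normalization or the dimmest 30% of genes left out (28 genes called in each), and with the probe set chosen over 12 arrays. Genes called rose to 43 (8 lower) with all 12 arrays, where 19 of the 25 remained, to 34 (2 lower) with each array centred on its median, and to 73 (61 higher, 12 lower) with limma's trend and robust options. They were 26, none lower, with the mean of a gene's probe sets (Hopx, Steap2, Mt1, Pawr, Dusp3 and Intu lost), and 22 without _x_at and _s_at probe sets (Pkp2, Clu and Mt1 lost). The replicate block gave 11, with 0 lower, and the Xist covariate, chosen after seeing the data, 11 (10 higher, 1 lower). Without both arrays numbered 3, also chosen after seeing the data, 0 were called. Leaving out 1 array gave 4 to 9 genes, with 0 lower, 1 to 8 probe sets against 40, and 20 to 32 genes whose effect differed from YAP against 48. The block gave 0 probe sets and 14 such genes. These fits have fewer samples or residual degrees of freedom, and no called gene changed sign in any of them.

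The difference for Nf2 ran from -0.44 to -0.31 with 1 array left out and was called in no fit. Signs changed for genes near 0 and for Slc2a3 and Xist. Eomes (-0.01) was 0.0073 with array weights and -0.06 to 0.05 with 1 array left out, and Yap1 (-0.01) was 0.018 with mean probe sets and -0.057 to 0.04. Ankrd1 (0.04) was -0.017 with mean probe sets, -0.07 without both arrays numbered 3 and -0.078 to 0.11 with 1 array left out. Lhx2 (0.02) was -0.005 without both arrays numbered 3 and -0.005 to 0.065 with 1 array left out, and Steap4 (0.04) -0.09 to 0.15. Slc2a3 (0.50) was -0.017 without _x_at and _s_at probe sets, where a dim probe set stands for it. Xist (2.61) was -0.02 without both arrays numbered 3 and 0.00 as its own covariate. The cause of other changes was not tested. Low intensities limit Pkp2, Otud1, Steap2 and Steap1 in the controls.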
